A study of Drosophila melanogaster with 42 samples.

Results

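Gene expression in whole flies (Drosophila melanogaster) labelled as mutants of the nuclear receptor ERR was compared with that of control flies at the A6 time point of a developmental time course. The series runs over 7 time points, labelled WPP, P1 to P4, A1 and A6. The comparison rests on the 6 libraries labelled A6, 3 of ERR mutants and 3 of controls, of the 42 libraries in the series, and takes in all genes. Of the 15038 genes in the count table, 13672 passed the filter on low counts and were tested. Both genotypes were heat-treated on days 4 and 5 after egg laying and staged as white prepupae (WPP) before collection. They differed in having or lacking the hsFLP transgene, which drives a flippase recombinase from a heat-shock promoter. The labels name neither the ERR alleles nor the rest of the genetic background, and they do not say which genotype carried hsFLP. They do not spell out the code A6, the sex of the flies or how many animals a library holds. A difference between the genotypes therefore cannot be assigned to ERR alone. The p-values rest on the spread between the 3 libraries of a group, estimated over all 14 groups of the series and not from the A6 libraries alone. That spread may be technical.

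ERR is the fly's single estrogen-related receptor, an orphan nuclear receptor that binds DNA as a transcription factor. In Drosophila embryos and larvae it is known for switching on the genes of glycolysis, which splits glucose into pyruvate, and the neighbouring pentose phosphate branch. Its mammalian relatives are known for driving mitochondrial respiration and the burning of fatty acids in muscle, heart and brown fat.

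Poly(A) RNA was sequenced with stranded libraries, and values are given as CPM, the counts of a gene scaled to a common library size. Total counts lay between 4872769 and 6387524 in the A6 libraries, within the range of 4308848 to 7737140 over the series. The first principal component of the 6 A6 libraries held 54.7% of the variance and separated the genotypes. The second (13.1%) set mutant replicate 3 at -23.7 apart from mutant replicates 1 and 2 at 12.5 and 8.4. Replicate numbers were assigned here in the order of the samples, as the labels carry none. RNAs of the male germ line and accessory gland were present in every library, with Mst87F, a sperm RNA, at 364 to 378 CPM in the controls and 387 to 398 CPM in the mutants. The yolk protein RNAs Yp1 and Yp2, made by females, reached at most 1.28 and 0.934 CPM. The yolk protein RNA Yp3 stood above both, at 9.61, 10.2 and 8.71 CPM in the controls and 7.74, 6.46 and 4.83 CPM in the mutants. It did not pass the test (adjusted p = 0.154), but was lower in the mutants when only the A6 libraries were fitted (adjusted p = 0.0263). It was also lower with only the 12 libraries of A1 and A6 (adjusted p = 0.04). The male dosage compensation RNA roX1 was at 501, 488 and 547 CPM in the controls and 824, 783 and 675 CPM in the mutants, without passing the test (adjusted p = 0.648). Its groups did not overlap, and roX1 was not followed through the other settings. RNAs that mark muscle, eye, gut, fat body, blood cells and neurons of the adult were detected in all 6 libraries, and their values stand beside the gene groups they move with. The symbols Peb, Vm26Aa and Cp36 were not found in the count table, so no values stand under them. The ejaculatory bulb protein gene Ebp was tested and is given below.

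ERR mRNA itself was at 34.3, 35.4 and 37 CPM in the controls and 5.96, 5.9 and 4.51 CPM in the mutants, a 6.49-fold difference (log2 fold change -2.70 ± 0.19, adjusted p = 2.8e-12). The 3 mutant libraries lay far below the controls but above 0. Of the exonic bases of ERR (chromosome 3L, 8183361 to 8186671, minus strand, dm6), 52.2% are shared with genes on the other strand. The strand setting of the counting is not given here, so reads of ERR and of those genes may not be fully told apart. Uxs, which overlaps ERR on the other strand and makes UDP-xylose, was at 12.5, 8.77 and 10.1 CPM in the controls and 6.77, 4.35 and 4.83 CPM in the mutants (log2 fold change -0.98 ± 0.27). It passed the test but was not followed through the other settings. The gene mthl7, on the same strand, encodes a Methuselah-like G protein-coupled receptor and lies 2846 bases from ERR. It was at 20.8, 21.2 and 25 CPM in the mutants against 0, 0.183 and 0 CPM in the controls (adjusted p = 5.9e-14). With 1 count in all controls and 435 in all mutants, the ratio was 411 (exact 95% interval 73.4 to 16300, for counting error only).

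Between the genotypes, 1562 genes passed an adjusted p of 0.05 (11.4% of the genes tested). More genes were higher in the mutants (840, 6.14%) than lower (722, 5.28%), but the lower ones moved further. The median fold was 1.97 among the lower and 1.44 among the higher genes, and of the 456 genes that passed with at least a 2-fold difference (3.34%), 352 were lower. The balance of directions depended on the scaling: higher genes were 53.8% of the calls with trimmed mean (TMM) scaling, 41.7% with DESeq2 size factors (653 higher, 913 lower), 42.4% with the deposited factors (640 higher, 870 lower) and 42.5% in DESeq2 itself (699 higher, 946 lower). Leaving out mutant replicate 2 reduced the calls to 906, and fitting only the 6 A6 libraries raised them to 3218. The libraries of the genotypes did not overlap for 5151 genes (37.7%), so a lack of overlap alone is common here. In what follows "rose" and "fell" mean higher or lower in the mutants with an adjusted p under 0.05, fold changes are log2 (mutant over control) ± standard error. Each call given with its adjusted p held in all 15 alternative settings at A6 unless its exception is given. Genes on the other strand share 30.2% of the exonic bases of CG9485, 22.1% of Gpdh1, 42.4% of mino, 40.7% of gce, 40.9% of Myc, 49.5% of Jheh3 and 84.6% of Lsp2. A gene on the same strand shares 27.9% of those of elav, so the values of these genes are less certain.

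**Figure D1:**
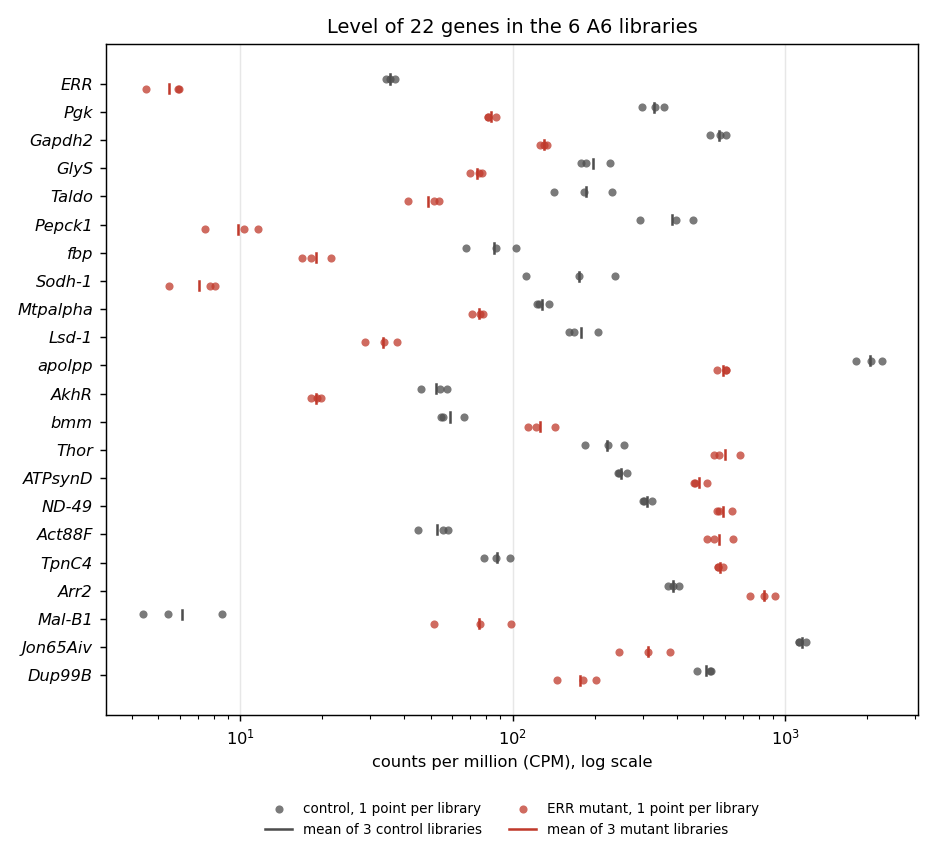
Level of genes described in the text in each A6 library, in CPM on a log scale. Grey points are the 3 controls, red points the 3 ERR mutants, and vertical ticks the means. In every gene shown the 2 sets of points do not overlap, from ERR at the top (34.3 to 37 against 4.51 to 5.96 CPM) through the metabolic genes to Act88F and TpnC4, which lie to the right in the mutants.

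Sugar breakdown was lower along most of its length. Of 13 glycolytic genes, 10 fell (5.28% of all genes did so) and none rose, by 0.89 to 2.26 on the log2 scale. The median log2 fold change over the 13 was -1.40 against 0.01 over all genes tested. Over the 15 alternative settings 9 to 11 of the 13 fell. At A1, the other labelled A time point, 10 were also lower, with a median of -1.42. Phosphoglucomutase (Pgm), which links glycogen to glycolysis, was at 278, 247 and 242 CPM in the controls and 56.4, 52.5 and 51.4 CPM in the mutants (log2 fold change -2.26 ± 0.14, adjusted p = 1.9e-13). Phosphoglycerate kinase (Pgk), the first ATP-yielding step, was at 359, 334 and 299 CPM in the controls and 81.4, 87.1 and 81.2 CPM in the mutants (log2 fold change -1.99 ± 0.10, adjusted p = 3.6e-15). Both sets of libraries were tight and far apart. Glyceraldehyde 3-phosphate dehydrogenase (Gapdh2) fell 4.4-fold (log2 fold change -2.14 ± 0.13, adjusted p = 8.5e-14) and enolase (Eno) 2.64-fold (log2 fold change -1.40 ± 0.095, adjusted p = 1.2e-12). The 3 members that did not pass in the shared fit stand at the ends of the pathway: the hexokinases Hex-A and Hex-C, which trap glucose, had log2 fold changes of 0.13 and -0.54, and pyruvate kinase (PyK) of -0.12. Of 10 paralogs of glycolytic enzymes known from testis none passed in edgeR, at an unadjusted p under 0.05 or in DESeq2 (median -0.03).

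The branches off glycolysis moved the same way. In the pentose phosphate pathway, a source of NADPH and of ribose, 6 of 8 genes fell, among them both carbon-shuffling enzymes. Transaldolase (Taldo) was at 231, 183 and 142 CPM in the controls and 53.9, 41.1 and 51.2 CPM in the mutants (log2 fold change -1.93 ± 0.15, adjusted p = 7.1e-11). The transketolase CG8036 fell 2.6-fold (log2 fold change -1.38 ± 0.12, adjusted p = 5.2e-10). Ribose 5-phosphate isomerase (Rpi, log2 fold change -0.97 ± 0.13, adjusted p = 1.6e-06) and the 6-phosphogluconolactonase CG17333 (-1.07 ± 0.15, adjusted p = 8.2e-06) each fell by about the median of the list, -1.02. Of 13 genes of glycogen and trehalose, 7 fell and none rose. Glycogen synthesis and its breakdown fell together. Glycogen synthase (GlyS) was at 227, 186 and 178 CPM in the controls and 69.6, 77 and 75.2 CPM in the mutants (log2 fold change -1.41 ± 0.14, adjusted p = 1.3e-08). The branching enzyme AGBE fell 4.36-fold (log2 fold change -2.12 ± 0.17, adjusted p = 7.1e-11) and the debranching enzyme CG9485 fell 2.66-fold (log2 fold change -1.41 ± 0.17, adjusted p = 3.6e-07). In the same libraries 5 of 10 fat body genes fell, with a summed level of the list of 2047 to 2585 CPM in the controls and 718 to 779 CPM in the mutants. Most of that sum was the blood lipid carrier apolpp, at 1818 to 2257 CPM in the controls and 561 to 609 CPM in the mutants. The part of the fat body list in the glycogen result was not tested. Among redox enzymes beside glycolysis, 5 of 11 fell. Sorbitol dehydrogenase 1 (Sodh-1), which turns sorbitol into fructose, was at 237, 175 and 112 CPM in the controls and 7.74, 5.48 and 8.05 CPM in the mutants (log2 fold change -4.63 ± 0.28, adjusted p = 5.9e-14). Lactate dehydrogenase (Ldh) fell 2.71-fold (log2 fold change -1.44 ± 0.28, adjusted p = 4.7e-04) and the glycerol 3-phosphate dehydrogenase Gpdh1 1.82-fold (log2 fold change -0.87 ± 0.17, adjusted p = 4.4e-04).

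Among the lists of sugar and fat metabolism the largest fold was in gluconeogenesis, the remaking of glucose. Phosphoenolpyruvate carboxykinase 1 (Pepck1), which commits carbon to that path, was at 399, 459 and 293 CPM in the controls and 11.6, 7.44 and 10.3 CPM in the mutants, a 39.2-fold difference (log2 fold change -5.29 ± 0.23, adjusted p = 1.5e-17). The lowest control lay far above the highest mutant. At A1 it was at 659.6 ± 122 CPM in the controls and 656 ± 61.6 CPM in the mutants (n = 3 each). The difference between the A6 and A1 effects was -5.29 ± 0.28 on the log2 scale (adjusted p = 1.0e-14). The count table gives the same values to CG45087, whose exons are wholly shared with Pepck1 on the same strand, so both symbols stand for the same reads. Fructose-1,6-bisphosphatase (fbp), which reverses the committed step of glycolysis, was at 103, 86.6 and 67.5 CPM in the controls and 18.2, 21.6 and 16.9 CPM in the mutants (log2 fold change -2.18 ± 0.19, adjusted p = 5.2e-10). Its effect was again more negative than at A1 (difference -1.71 ± 0.26, adjusted p = 1.5e-04). Pyruvate carboxylase (PCB), which feeds the path, fell 1.59-fold (log2 fold change -0.67 ± 0.12, adjusted p = 1.2e-04). The remaining members of the 5, glucose-6-phosphatase (G6P, -0.25) and Pepck2 (0.03), did not pass. The fat body list, most of whose summed level was apolpp, was also lower, at 718 to 779 CPM in the mutants against 2047 to 2585 CPM in the controls. Its part was not tested.

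Mitochondrial respiration went the other way. Of 72 nuclear genes for the respiratory chain and ATP synthase, 62 rose and none fell. In DESeq2, with its size factors and with the deposited factors 1 fell, and 2 did with only the A6 libraries. The median log2 fold change was 0.65, with called members between 0.28 and 0.95. Members of every complex rose: 30 of 35 genes of complex I, 3 of 4 of complex II, 9 of 9 of complex III, 8 of 10 of complex IV and 12 of 13 of complex V rose. The ATP synthase stalk subunit ATPsynD was at 263, 245 and 244 CPM in the controls and 464, 517 and 467 CPM in the mutants (log2 fold change 0.95 ± 0.094, adjusted p = 9.8e-09). The complex I subunit ND-49 was at 326, 302 and 302 CPM in the controls and 570.1, 636 and 562 CPM in the mutants (log2 fold change 0.93 ± 0.10, adjusted p = 5.3e-08). For both genes the lowest mutant library stood far above the highest control. Of the members that did not pass, ND-51L1, ND-51L2, COX7A and COX7AL had log2 fold changes below 0, from -0.40 in ND-51L2 to -0.18 in COX7AL. At A1 none of the 72 passed in edgeR (21 had an unadjusted p under 0.05) and the median was 0.19. The A6 effect exceeded the A1 effect in 22 of them (1.76% of all genes did so) and the mean effect of the 6 other stages in 60 (3.61% of all genes). The muscle genes described below rose in the same libraries, their summed level going from 18137 to 18645 CPM in the controls to 25331 to 28128 CPM in the mutants. Their part in this result was not tested.

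**Figure D2:**
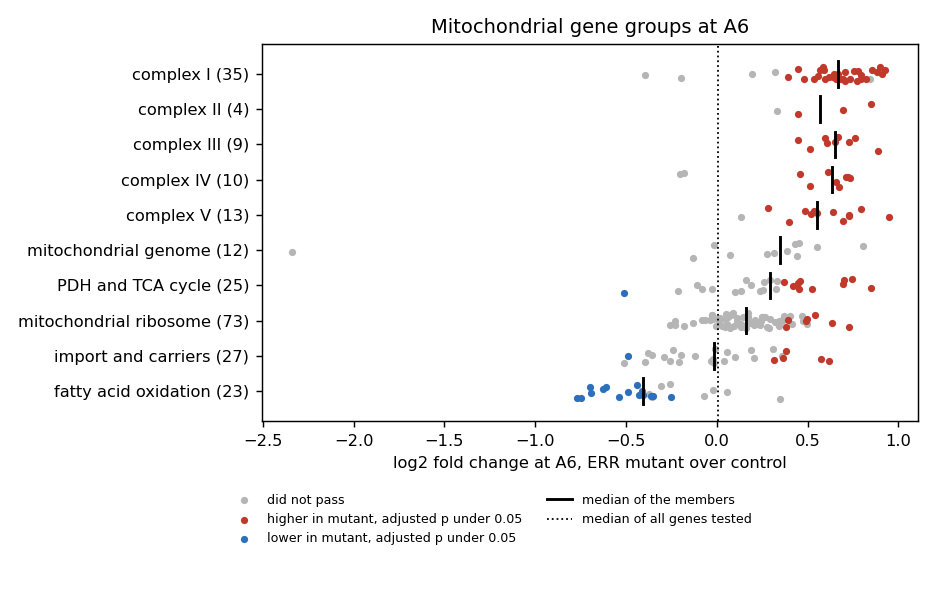
Log2 fold change at A6 (mutant over control) of the genes of mitochondrial groups, 1 point per gene, red where higher and blue where lower with an adjusted p under 0.05, with the median of each group as a black bar and the median of all genes as a dotted line. The complexes of the respiratory chain lie to the right, with medians of 0.55 to 0.67, and fatty acid oxidation to the left, at -0.41.

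The tricarboxylic acid (TCA) cycle, which feeds electrons to that chain, moved in the same direction at a smaller scale. Of 25 genes of the cycle and of the pyruvate dehydrogenase (PDH) step that supplies it, 10 rose and 1 fell (median 0.29), and 17 rose when only the A6 libraries were fitted. Fumarase (Fum1) was at 294, 297 and 254 CPM in the mutants against 179, 160.4 and 165 CPM in the controls (log2 fold change 0.75 ± 0.10, adjusted p = 3.7e-06). The isocitrate dehydrogenase subunit l(1)G0156 rose 1.63-fold (log2 fold change 0.70 ± 0.11, adjusted p = 4.2e-05) and SdhC, which belongs to both the cycle and complex II, rose 1.8-fold (log2 fold change 0.85 ± 0.11, adjusted p = 1.0e-06). The 1 that fell was PDH kinase (Pdk, -0.51), which switches the PDH step off; it did not pass without control replicate 1 or without mutant replicate 3. The ADP/ATP carrier sesB, which exports ATP from mitochondria, rose 1.53-fold (log2 fold change 0.62 ± 0.11, adjusted p = 1.3e-04). The machinery that builds mitochondria moved less. Of 73 mitochondrial ribosomal proteins 7 rose and none fell (median 0.16), beside the 6.14% of all genes that did so, and 3 rose without mutant replicate 2 or without control replicate 2 or 3. None of 12 genes of the mitochondrial genome passed by edgeR (0 at an unadjusted p under 0.05, and 0 by DESeq2; median 0.35), whereas 5 rose with only the A6 libraries. At A1 their median was -0.998, 1 was lower and 9 of the 12 had an unadjusted p under 0.05.

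Fatty acid oxidation fell while the respiratory chain rose. Of 23 genes, 15 fell and none rose, each by less than 2-fold (-0.25 to -0.77, median over all 23 of -0.41). The alpha subunit of the trifunctional protein (Mtpalpha) was at 125, 136 and 123 CPM in the controls and 76.1, 71.2 and 77.8 CPM in the mutants (log2 fold change -0.77 ± 0.12, adjusted p = 1.3e-05). The thiolase yip2 was at 164, 181 and 128 CPM in the controls and 97.5, 86.9 and 96.8 CPM in the mutants (log2 fold change -0.75 ± 0.12, adjusted p = 4.6e-05). In both, all mutants were below all controls, though control replicate 3 of yip2 lay nearer to the mutants than the other controls. The dehydrogenase scu fell 1.62-fold (log2 fold change -0.69 ± 0.12, adjusted p = 9.1e-05). The acylcarnitine carrier colt, which brings fatty acids across the inner membrane, fell 1.41-fold (log2 fold change -0.49 ± 0.091, adjusted p = 2.6e-04). At A1 1 of the 23 passed, CG3902, which was higher (5 had an unadjusted p under 0.05). Of the 23, 6 were more negative at A6 than at A1 (1.11% of all genes), with Mtpalpha at a difference of -0.74 ± 0.16 (adjusted p = 0.00837). The fat body list, most of whose summed level was apolpp, was at 718 to 779 CPM in the mutants and 2047 to 2585 CPM in the controls. Its part in these values was not tested.

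Fat storage and transport genes were lower, with the lipase bmm as an exception. Of 26 genes of lipid droplets, lipoproteins and lipases, 11 fell (5.28% of all genes) and 2 rose (6.14%), with a median of -0.44. The count of lower genes was 7 without control replicate 2 or without mutant replicate 1. Perilipin 1 (Lsd-1), which coats fat body droplets and gates lipolysis, was at 206, 160.5 and 168 CPM in the controls and 37.6, 28.8 and 33.7 CPM in the mutants (log2 fold change -2.42 ± 0.26, adjusted p = 7.2e-08). Jabba, which anchors histones to droplets, was at 84.8, 70 and 73.1 CPM in the controls and 30.8, 26.8 and 30.1 CPM in the mutants (log2 fold change -1.38 ± 0.16, adjusted p = 2.8e-07). Apolipophorin (apolpp), the blood lipid carrier made by fat body, was at 2257, 2059 and 1818 CPM in the controls and 608, 561 and 609 CPM in the mutants (log2 fold change -1.79 ± 0.22, adjusted p = 5.9e-07). In all 3 genes the groups were tight and did not overlap. The fat body list, most of whose summed level was apolpp itself, went from a summed 2047 to 2585 CPM in the controls to 718 to 779 CPM in the mutants. Its part in the changes of the other fat genes was not tested. Brummer (bmm), the fly's adipose triglyceride lipase, was at 122, 143 and 114 CPM in the mutants against 55.5, 66.5 and 54.8 CPM in the controls (log2 fold change 1.10 ± 0.12, adjusted p = 3.1e-08). Each of these 4 differed from its A1 effect, bmm by 1.03 ± 0.16 (adjusted p = 3.0e-04) and apolpp by -1.67 ± 0.30 (adjusted p = 0.00152). Fatty acid synthesis had 3 genes higher and 3 lower of 17 (median -0.07), and 1 lower without control replicate 1 or 2 or without mutant replicate 1, 2 or 3. The sterol-regulated activator SREBP (log2 fold change 0.64 ± 0.12, adjusted p = 2.2e-04) and the glycerol phosphate acyltransferase mino (log2 fold change 0.56 ± 0.086, adjusted p = 2.5e-05) rose. ATP citrate lyase (ATPCL), which supplies acetyl-CoA, fell (log2 fold change -0.44 ± 0.11, adjusted p = 0.00461), and the fatty acid synthases did not pass. Of 22 fatty acid elongases 6 fell and 1 rose, and 3 fell without mutant replicate 2; Elo68alpha, a male elongase, fell 2.59-fold (log2 fold change -1.37 ± 0.21, adjusted p = 1.9e-04).

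Of 20 genes of insulin-like peptides, adipokinetic hormone and their readouts, 4 rose (6.14% of all genes) and 2 fell (5.28%), with a median of 0.10. The higher count was 2 without mutant replicate 2 and 7 with only the A6 libraries, with which 4 fell. The receptor of adipokinetic hormone (AkhR), the fly's glucagon-like signal, was at 57.2, 54.2 and 46.1 CPM in the controls and 18.2, 19.1 and 19.8 CPM in the mutants (log2 fold change -1.46 ± 0.15, adjusted p = 2.7e-08). Its ligand Akh had a log2 fold change of -0.03 and did not pass. Thor, the translation inhibitor 4E-BP, which is switched on when insulin signalling is low, was at 574, 680 and 546 CPM in the mutants against 184, 257 and 224 CPM in the controls (log2 fold change 1.44 ± 0.16, adjusted p = 1.1e-07). The insulin receptor InR, another gene raised when insulin signalling is low, was at 64.3, 66.3 and 56.4 CPM in the mutants against 26.6, 40.2 and 35.6 CPM in the controls (log2 fold change 0.87 ± 0.17, adjusted p = 7.0e-04). No tested gene of an insulin-like peptide passed, and Ilp6, which the fat body makes, had a log2 fold change of -0.21. CCHa2, a peptide hormone of fat body and gut that reports nutrition, fell 2.13-fold (log2 fold change -1.09 ± 0.18, adjusted p = 6.6e-05). AkhR differed from its A1 effect by -1.23 ± 0.21 (adjusted p = 8.6e-04), whereas the Thor effect was 1.26 at A1 and the difference did not pass (adjusted p = 0.83).

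Of 24 transcriptional regulators of metabolism, 6 rose and 1 fell, and 12 rose with only the A6 libraries. By comparison, 6.14% of all genes tested rose and 5.28% fell. The sugar-responsive repressor cabut (cbt) was at 112, 120.4 and 102 CPM in the mutants against 56.9, 67.8 and 66 CPM in the controls (log2 fold change 0.81 ± 0.13, adjusted p = 4.7e-05). The growth regulator Myc rose 1.73-fold (log2 fold change 0.79 ± 0.20, adjusted p = 0.00655). Sugarbabe (sug), a factor switched on by dietary sugar, was the 1 that fell (-0.93); it did not pass with only the A6 libraries or without control replicate 2, control replicate 3 or mutant replicate 3. The PGC-1 homologue srl, a coactivator known for raising respiratory genes, did not pass at A6 (0.38). Of 25 genes of juvenile hormone and ecdysone, 2 rose and 4 fell. With only the A6 libraries 9 rose, whichever of the 6 libraries was left out 1 rose, and 1 fell without control replicate 2 or without mutant replicate 1 or 2. The juvenile hormone receptor gce rose 1.71-fold (log2 fold change 0.77 ± 0.14, adjusted p = 2.3e-04), and the hormone-degrading epoxide hydrolase Jheh3 fell 1.96-fold (log2 fold change -0.97 ± 0.17, adjusted p = 1.5e-04).

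Muscle structure genes rose as a group, led by Act88F and TpnC4 of the indirect flight muscle. Of 30 genes, 20 rose and none fell, with a median of 0.61 against 0.05 at A1, where none passed in edgeR (0 at an unadjusted p under 0.05). Act88F, the actin of flight muscle, was at 518, 548 and 644 CPM in the mutants against 55.7, 58.1 and 45.1 CPM in the controls, a 10.8-fold difference (log2 fold change 3.43 ± 0.19, adjusted p = 1.4e-14). TpnC4, the flight muscle troponin C, was at 565, 589 and 569 CPM in the mutants against 97.8, 78.7 and 86.7 CPM in the controls (log2 fold change 2.71 ± 0.17, adjusted p = 3.0e-13). In neither gene did the groups come near each other. At A1 both genotypes held far more of both RNAs. Act88F was at 7197 ± 874 CPM in the controls and 7667 ± 822 CPM in the mutants. TpnC4 was at 1026 ± 33.4 CPM in the controls and 1092 ± 68.4 CPM in the mutants (n = 3 each). Between A1 and A6 the mean of Act88F thus went from 7197 to 53.0 CPM in the controls and from 7667 to 570.0 CPM in the mutants. The difference between the A6 and A1 effects was 3.34 ± 0.25 (adjusted p = 9.7e-11). Flightin (fln), another flight muscle gene, moved far less. It was at 91.8, 68.9 and 76.1 CPM in the controls and 107, 135 and 128 CPM in the mutants. It passed the test but was not followed through the other settings. More widely used muscle genes also moved less than Act88F and TpnC4. Troponin T (up) rose 2-fold (adjusted p = 2.6e-06) and alpha-actinin (Actn) 1.66-fold (log2 fold change 0.73 ± 0.10, adjusted p = 8.0e-06). The heavy chain Mhc was at 1932, 2089 and 1962 CPM in the controls and 2660, 2976 and 2525 CPM in the mutants without passing (adjusted p = 0.091). The A6 effect was above the A1 effect in 11 of the 30 (1.76% of all genes). It was above the mean effect of the 6 other stages in 18 (3.61% of all genes). In these bulk whole-fly libraries, more cells of a type and more RNA per cell cannot be told apart, and the same holds for fewer cells and less RNA.

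**Figure D3:**
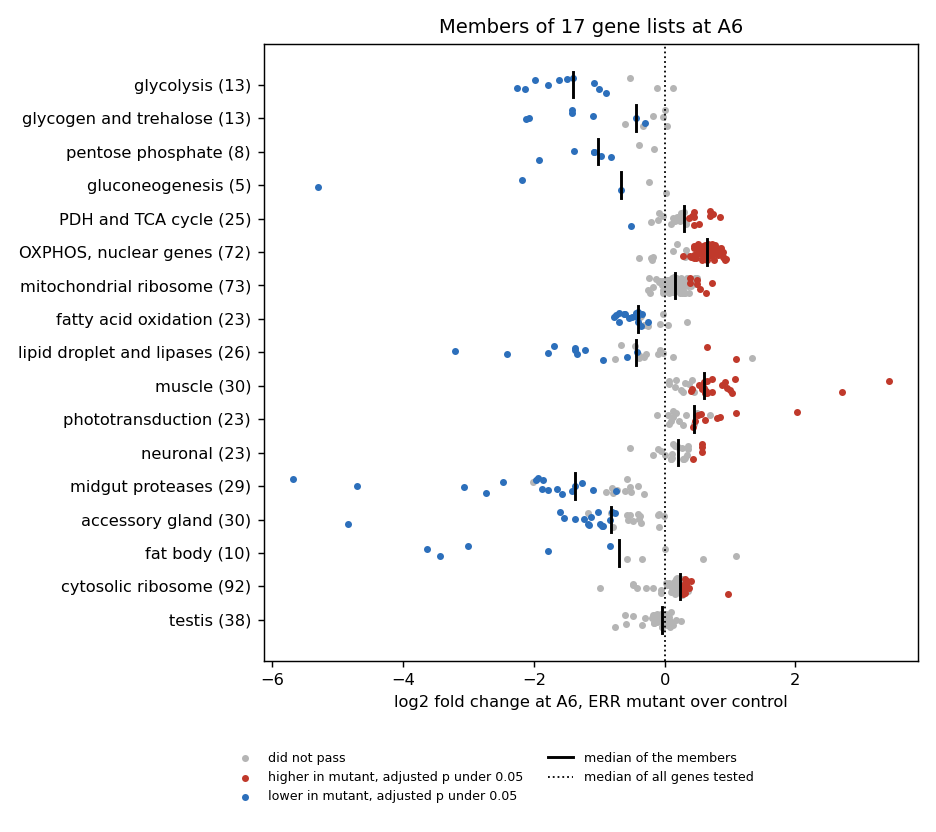
Log2 fold change at A6 (mutant over control) of each tested member of gene lists, 1 point per gene (number tested in brackets), red where higher and blue where lower with an adjusted p under 0.05. Black bars are list medians and the dotted line is the median of all genes, 0.01. Sugar pathways, fatty acid oxidation, midgut proteases and accessory gland lie to the left, and OXPHOS and muscle to the right, while testis is centred near 0.

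RNAs of the eye rose in part. Of 23 phototransduction genes, 9 rose (6.14% of all genes did so) and none fell (median 0.44). When only the A6 libraries were fitted, 15 rose. Arrestin 2 (Arr2), which shuts off rhodopsin, was at 919.6, 838 and 741 CPM in the mutants against 373, 387 and 407 CPM in the controls (log2 fold change 1.10 ± 0.21, adjusted p = 4.3e-04). The blue-sensitive opsin Rh5 was at 43.9, 43.3 and 44.3 CPM in the mutants against 8.24, 10.8 and 13.1 CPM in the controls (log2 fold change 2.03 ± 0.24, adjusted p = 2.5e-07). The phospholipase norpA, which carries the light signal, rose 1.53-fold (log2 fold change 0.62 ± 0.12, adjusted p = 6.7e-04). The main opsin ninaE was at 2957, 3194 and 3235 CPM in the controls and 5763, 5070 and 4362 CPM in the mutants and did not pass (adjusted p = 0.431). Its groups did not overlap, and ninaE was not followed through the other settings. Of 23 neuronal genes 4 rose (6.14% of all genes did so) and none fell. The count was 1 with the deposited factors, 10 with only the A6 libraries and 2 without control replicate 1, 2 or 3 or without mutant replicate 1 or 2. The synaptic vesicle gene nSyb was at 236, 219.7 and 233 CPM in the controls and 282, 312 and 258 CPM in the mutants and did not pass (adjusted p = 0.051). The pan-neuronal RNA-binding protein elav, at 48.4, 51.8 and 47.9 CPM in the mutants against 32.2, 29 and 38.8 CPM in the controls, was one of them (log2 fold change 0.56 ± 0.14, adjusted p = 0.00514). The neuropeptide precursor Nplp2 fell 2.28-fold (log2 fold change -1.19 ± 0.22, adjusted p = 3.2e-04).

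Digestive protease genes of the midgut were lower. Of 29 trypsin and chymotrypsin-like genes, 17 fell and none rose (median -1.38 against -0.01 at A1, where 2 were lower), and 10 of the 15 Jonah proteases were among them. The median of the Jonah genes at A1 was -0.54. In 4 of the 29 the A6 effect was more negative than at A1 (1.11% of all genes), and 16 differed at an unadjusted p under 0.05. Against the mean effect of the 6 other stages none passed. Jon65Aiv was at 1127, 1192 and 1126 CPM in the controls and 314, 245 and 379 CPM in the mutants (log2 fold change -1.88 ± 0.30, adjusted p = 3.9e-05). Jon25Biii was at 459, 512 and 511 CPM in the controls and 93.8, 58.8 and 116 CPM in the mutants (log2 fold change -2.47 ± 0.29, adjusted p = 1.7e-06). The related protease yip7 was at 1548, 1747 and 1660 CPM in the controls and 649, 552 and 708 CPM in the mutants (log2 fold change -1.38 ± 0.23, adjusted p = 9.8e-05). All mutant libraries were below all controls in these 3, and mutant replicate 2 was the lowest throughout. Jon99Fi, with the largest fold of the list, had unequal controls. It was at 6.41, 11.5 and 48.1 CPM in the controls and 0.161, 0.14 and 0.967 CPM in the mutants (log2 fold change -5.68 ± 0.82, adjusted p = 1.5e-04). It did not pass when only the A6 libraries were fitted (adjusted p = 0.0797). Many of these genes have near-identical copies, between which the counting could split reads, so values of single members are less certain than the direction of the family. The abundant trypsin alphaTry, at 1988, 1960 and 1786 CPM in the controls and 1442, 1305 and 1260 CPM in the mutants, did not pass (adjusted p = 0.14). Sugar digestion was mixed, with 2 of 14 genes higher (6.14% of all genes) and 2 lower (5.28%). The maltase gene Mal-B1 was at 75.9, 98.7 and 51.4 CPM in the mutants against 8.54, 4.38 and 5.45 CPM in the controls (log2 fold change 3.61 ± 0.36, adjusted p = 2.2e-08). Its effect was above that at A1 by 3.01 ± 0.47 (adjusted p = 3.6e-04). The maltase Mal-A1 kept overlapping levels of 400 to 537 CPM and 497 to 622 CPM. The near-identical amylases Amy-p and Amy-d had log2 fold changes of -0.88 and -1.04. The call of Amy-p was lost in 6 and that of Amy-d in 5 of 15 settings (adjusted p up to 0.205). Both were lost without control replicate 1, without mutant replicate 2 and with only the 12 libraries of A1 and A6.

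RNAs of the male accessory gland fell, and none of the testis list passed in the shared fit. Of 30 seminal fluid genes, 15 fell and none rose (median -0.81 against 0.01 at A1). This count varied with the settings: it was 24 with only the A6 libraries, 9 without control replicate 1, control replicate 3 or mutant replicate 1, and 6 without mutant replicate 2. Only 1 of the 30 had an A6 effect more negative than at A1 (1.11% of all genes), though 16 differed at an unadjusted p under 0.05. Against the mean effect of the 6 other stages none passed. Dup99B, an ejaculatory duct peptide related to sex peptide, was at 531, 534 and 477 CPM in the controls and 181, 146 and 202 CPM in the mutants (log2 fold change -1.54 ± 0.26, adjusted p = 4.9e-04). Acp24A4 was at 337, 338 and 363 CPM in the controls and 142, 125 and 176 CPM in the mutants (log2 fold change -1.23 ± 0.26, adjusted p = 0.00268). Acp53C14c fell 3.04-fold (log2 fold change -1.60 ± 0.33, adjusted p = 0.00198). Among the mutants, replicate 3 was the nearest to the controls in all 3 genes and replicate 2 the farthest. The ejaculatory bulb protein gene Ebp fell 2.13-fold (log2 fold change -1.09 ± 0.27, adjusted p = 0.00561), with an adjusted p of 0.0509 without mutant replicate 2. None of 38 testis genes passed in edgeR, at an unadjusted p under 0.05 or in DESeq2 (median -0.05). With only the A6 libraries 2 fell, can and sa, which encode testis-specific transcription factor subunits. The summed level of the testis list was 13019 to 13533 CPM in the controls and 12417 to 13758 CPM in the mutants. None of 14 genes of sex determination and dosage compensation passed in edgeR (1 at an unadjusted p under 0.05, 0 by DESeq2). With only the A6 libraries 3 of these rose, roX2 and Sxl among them, and 1 rose without control replicate 3. The female-biased fat body gene fit had a low level, 14.9, 12.8 and 11.2 CPM in the controls and 1.13, 0.843 and 1.61 CPM in the mutants (log2 fold change -3.43 ± 0.57, adjusted p = 8.9e-05).

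Among fat body RNAs other than apolpp, the larval serum proteins Lsp1beta and Lsp2, storage proteins of the larva, were already low and fell further. Lsp2 was at 20.4, 12.8 and 9.18 CPM in the controls and 1.77, 1.54 and 1.93 CPM in the mutants (log2 fold change -3.01 ± 0.39, adjusted p = 2.0e-06). Lsp1beta fell 12.4-fold (log2 fold change -3.63 ± 0.61, adjusted p = 8.7e-05). Of 10 fat body genes 5 fell and none rose. Takeout (to), a fat body and head gene, was at 201, 112 and 137 CPM in the controls and 123, 119 and 112 CPM in the mutants and did not pass (adjusted p = 0.296). Of 15 blood cell genes 3 fell, beside 5.28% of all genes. Only 1 of the 15 fell without control replicate 1 or without mutant replicate 1 or 2. The summed level of the list was 517 to 579 CPM in the controls and 435 to 449 CPM in the mutants. Hemolectin (Hml), the common marker of blood cells, was at 88.8, 80.5 and 63.3 CPM in the controls and 49.5, 56.6 and 51.2 CPM in the mutants and did not pass (adjusted p = 0.093). Prophenoloxidase 1 (PPO1), a melanin enzyme of crystal cells, was at 17.1, 17.4 and 12.1 CPM in the controls and 2.42, 1.97 and 3.22 CPM in the mutants (log2 fold change -2.61 ± 0.60, adjusted p = 0.00332). The defence genes did not move as a group. Of 30 antimicrobial and peptidoglycan recognition genes 1 rose and 3 fell, and 1 fell without control replicate 1 or 2 or without mutant replicate 2. In the main fit 13.3% of the 30 were called, beside 11.4% of all genes. The secreted amidase PGRP-SB1 fell 4.3-fold (log2 fold change -2.11 ± 0.30, adjusted p = 6.7e-06). The antimicrobial peptide DptA, at 20.8 CPM in mutant replicate 3 and 0.61 to 1.54 CPM in the other 5 libraries, did not pass (adjusted p = 0.0788), but did in DESeq2 (adjusted p = 0.00735) and without mutant replicate 1. Of the stress peptides of the Turandot family 3 of 6 fell, and 1 did so when only the A6 libraries were fitted. TotX was at 16.5, 9.13 and 25.2 CPM in the controls and 2.26, 1.4 and 1.93 CPM in the mutants (log2 fold change -3.18 ± 0.46, adjusted p = 1.5e-05).

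**Figure D4:**
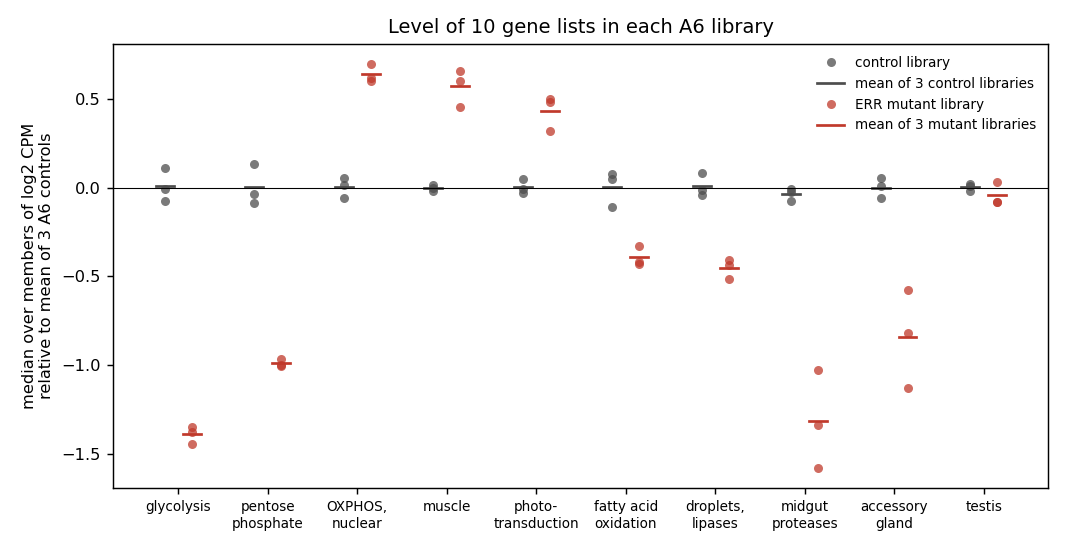
Level of gene lists in each A6 library, as the median over the members of log2 CPM relative to the mean of the 3 controls. Points are libraries (control grey, ERR mutant red) and bars the mean of 3. The mutants lie between -1.45 and -1.35 for glycolysis and between 0.60 and 0.70 for OXPHOS, while for midgut proteases and accessory gland they spread more widely.

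Genes of protein turnover changed little, and their counts depended on the settings. The counts in this paragraph stand beside 6.14% of all genes that rose and 5.28% that fell. Of 92 cytosolic ribosomal protein genes 15 rose and none fell (median 0.23). The count was 3 without mutant replicate 2, 4 without control replicate 2 or 3 or without mutant replicate 1, 8 without control replicate 1, 27 without mutant replicate 3 and 58 with only the A6 libraries. RpL24-like, listed with them as a relative of the ribosomal protein RpL24, rose most, 1.96-fold (log2 fold change 0.97 ± 0.11, adjusted p = 1.3e-07). The ribosomal proteins RpL21 (log2 fold change 0.35, adjusted p = 0.00514) and RpL15 (0.33, adjusted p = 0.0104) rose less. The median log2 fold change of the 15 that rose was 0.32. Of 32 proteasome genes 2 fell and none rose (median -0.23), and 8 fell with DESeq2 size factors and 22 with only the A6 libraries. The endoplasmic reticulum chaperone Hsc70-3 fell 1.41-fold (log2 fold change -0.49 ± 0.10, adjusted p = 9.8e-04). Of 28 amino acid enzymes 8 rose and 6 fell. Without single libraries the counts were as low as 3 higher (mutant replicate 1 or 2 left out) and 2 lower (control replicate 1 or mutant replicate 1 left out). With only the A6 libraries 11 fell. The mitochondrial folate enzyme Nmdmc rose 1.68-fold (log2 fold change 0.74 ± 0.16, adjusted p = 0.00157), and the aspartate aminotransferase Got1 fell 1.45-fold (log2 fold change -0.54 ± 0.12, adjusted p = 0.0023). Of 16 antioxidant genes 2 rose and 1 fell (median 0.03). With only the A6 libraries 4 rose and 3 fell. Mitochondrial Sod2 rose (log2 fold change 0.43 ± 0.096, adjusted p = 0.00222) and extracellular Sod3 fell (log2 fold change -0.78 ± 0.14, adjusted p = 2.0e-04).

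The genes of largest fold included several that were near 0 in 1 genotype at both A time points. CG32640 was at 12.5, 13.5 and 9.65 CPM in the controls and had no count in any mutant. That makes it at least 77.4-fold lower against a floor of 3 counts over the 3 mutant libraries (adjusted p = 9.4e-09). The translation initiation factor gene eIF4E7 was at 55.5, 51.7 and 52.1 CPM in the controls and 0.806, 0.281 and 0.161 CPM in the mutants (log2 fold change -6.94 ± 0.43, adjusted p = 1.1e-13). At A1 eIF4E7 was at 56.7 ± 1.8 CPM in the controls and 0.622 ± 0.293 CPM in the mutants. There mthl7 was at 0 ± 0 CPM in the controls and 16.5 ± 0.939 CPM in the mutants (n = 3 each). Among genes higher in the mutants, CG34040 was at 24.8, 39.7 and 16.3 CPM in the mutants against 1.53, 1.28 and 0.934 CPM in the controls (log2 fold change 4.41 ± 0.48, adjusted p = 2.8e-05). CG13947 was lower, at 91.2, 66.3 and 94.6 CPM in the controls and 8.71, 8.71 and 8.05 CPM in the mutants (log2 fold change -3.30 ± 0.30, adjusted p = 7.5e-08). At A1 it was at 9.73 ± 2.23 CPM in the controls and 7.53 ± 0.114 CPM in the mutants, and its A6 effect differed by -2.94 ± 0.43 (adjusted p = 4.3e-04).

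Set against A1, which shares no library with A6, the genotype difference at A6 was wider. At A1 397 genes passed (2.9%), 127 higher (0.929%) and 270 lower (1.97%), against the 1562 at A6. Of all calls, 184 were shared in the same direction, 50 higher and 134 lower, which is 11.8% of the A6 calls and 46.3% of the A1 calls; 8 had opposite directions. The difference between the effects passed in 393 genes (2.87%), more positive at A6 in 241 and more negative in 152. This count ranged from 186 without control A1 replicate 2 to 639 without control A1 replicate 3. It was 192 without mutant A6 replicate 2, 614 without mutant P1 replicate 1 and 1230 with only the 12 libraries of A1 and A6, an alternative chosen after the data were seen. Glycolysis, the pentose phosphate pathway and the glycogen genes had no member whose effect differed between A6 and A1 in edgeR (1, 0 and 1 at an unadjusted p under 0.05). Their medians at A6 and A1 were -1.40 and -1.42, -1.02 and -1.04, and -0.43 and -0.51. Against the mean effect of the 6 other stages, 773 genes passed (5.65%), 494 more positive at A6 and 279 more negative (2.04%), and 482 passed without mutant A6 replicate 2.

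**Figure D5:**
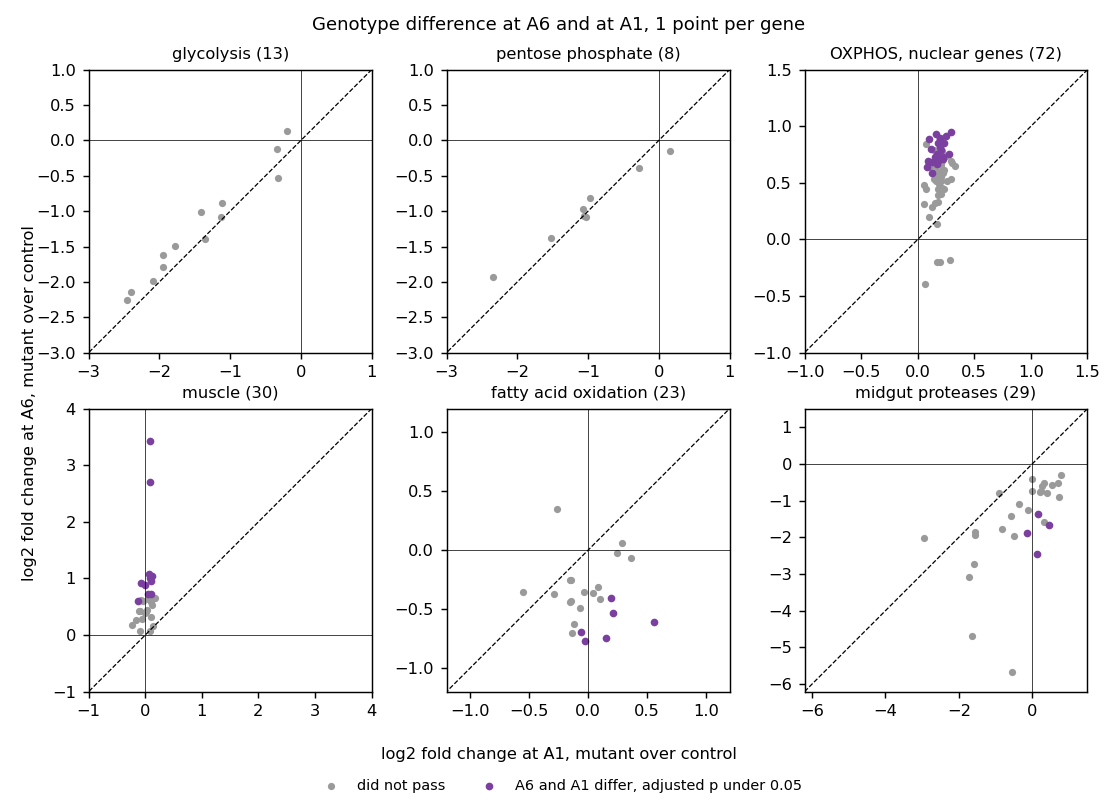
Log2 fold change (mutant over control) at A6 on the vertical axis and at A1 on the horizontal axis for 6 gene lists, 1 point per gene (number in brackets), purple where the effects differed with an adjusted p under 0.05. The dashed line marks equal effects and axis ranges differ between panels. Glycolysis and pentose phosphate genes lie near the line and low at both. Muscle genes lie near 0 at A1 (median 0.05) and above it at A6 (0.61). OXPHOS genes have a median of 0.19 at A1 and 0.65 at A6.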

How the data were processed

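Poly(A) RNA from whole flies was sequenced with a stranded kit, 3 libraries for each of 14 groups (7 time points, 2 genotypes). Per the submitters' processing notes, cutadapt 1.16, STAR 2.7.0f, RSEM 1.3.1, DESeq2 1.22.2 and the build dm6 were used. Neither their roles and parameters nor the annotation or strand setting are stated in the labels. The deposited table of estimated counts holds whole numbers, and no further rounding was needed. The deposited normalized values are a signal without a stated unit and served only to give the deposited factors of 1 alternative; the FPKM values computed by the authors were only tabulated. Gene positions and exon overlaps came from Ensembl 115, which matched 14950 of 15038 gene IDs (99.4%).

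All 42 libraries were fitted together in edgeR 4.0.16 (R 4.3.3, limma 3.58.1): trimmed mean scaling, the default low-count filter, 1 coefficient per group and a robust quasi-likelihood test, with Benjamini-Hochberg adjustment over all genes tested in each comparison and calls at an adjusted p under 0.05. The shared fit assumes that all groups vary alike around their means. CPM values use the scaled library sizes, and a prior count of 2 entered the log2 values of the principal components and list plots. The fit was tested on simulated data. No pair of A6 replicates agreed within sampling noise (chi-square per gene 2.77 to 5.92). Each library counted once, though such scatter cannot show whether the libraries come from separate animals. No value column of the tables used was without a sample.

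The 55 gene lists and the comparisons were chosen with earlier results of these data known. The naming rule took ERR, the 15 genes in each direction with the largest fold among called genes whose groups did not overlap and whose higher group had a mean of at least 10 CPM, as many as 4 of each list in order of adjusted p, and the 5 in each direction whose effect departed most from that at A1 and from the mean of the other stages; genes outside it, such as Uxs, Pdk, sug, mthl7 where near ERR, and those given to spell out a count, were named after their values were seen. The alternatives were other scalings, filters, dispersion settings and sets of libraries, DESeq2 1.42.0, and leaving out single libraries.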

Additional observations from a re-analysis of the deposited data

Results flagged for a closer look

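The genotype difference at A6 departed from that at A1 for 393 genes by the test of the difference itself (edgeR quasi-likelihood test, adjusted p under 0.05). Among those named by the rule for the largest such differences, Act88F (3.34), Mal-B1 (3.01) and TpnC4 (2.62) had log2 effects that were more positive at A6, as did CG4962 (2.11, adjusted p = 6.7e-06). At A6 CG4962 was at 12.1, 11.1 and 9.83 CPM in the mutants against 3.51, 3.1 and 3.89 CPM in the controls. At A1 it was at 178 ± 28.8 CPM in the controls and 129 ± 19.9 CPM in the mutants (mean ± SD, n = 3). Pepck1 and CG45087, which share their reads, were both more negative at A6 by -5.29. CG43061 was so by -4.5 (adjusted p = 1.5e-05), at 39.8, 43.1 and 34.2 CPM in the controls and 0.484, 2.11 and 0.967 CPM in the mutants at A6. CG15358, at 3.19 (adjusted p = 0.00193), was lower in the mutants at A1, with 5.91 ± 0.914 CPM in the controls and 0.511 ± 0.536 CPM in the mutants. At A6 it was at 20.8, 18.3 and 15.4 CPM in the controls and 15.2, 14.6 and 14 CPM in the mutants. CG15239 differed by -4.33 (adjusted p = 0.0278), with 23.6, 34.1 and 19 CPM in the controls and 1.45, 0.702 and 3.71 CPM in the mutants at A6. At A1 it was at 0.285 ± 0.126 CPM in the controls and 0.448 ± 0.349 CPM in the mutants. Its call was lost with only the 12 libraries of A1 and A6 and in other settings (adjusted p up to 0.207). TotC differed by -7.17 (adjusted p = 0.00895). Its A6 groups overlapped, at 11.6, 2.19 and 42.2 CPM in the controls and 1.61, 2.53 and 2.42 CPM in the mutants. Its A1 values were 0.934 ± 0.899 CPM in the controls and 16.1 ± 25.9 CPM in the mutants, and the call was lost without mutant A1 replicate 1 (adjusted p = 0.179) and with only the 12 libraries of A1 and A6 (adjusted p = 0.131).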

How the results depend on the processing

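Calls at A6 kept to within 1.5 times 1562 in every setting except these. With only the 12 libraries of A1 and A6, chosen after the data were seen, they were 2589 (1361 higher, 1228 lower), and with only the 6 A6 libraries 3218 (1594 higher, 1624 lower). Leaving out 1 library gave 906 to 1813 calls, 461 to 973 higher and 445 to 840 lower; the lowest of each came without mutant replicate 2. The effect at A6 minus that at A1 gave 186 to 639 calls without 1 library, 614 without mutant P1 replicate 1 and 1230 with only those 12 libraries; A6 against the other stages gave 482 (without mutant replicate 2) to 901. With only the A6 libraries, called list members reached 587, lipid droplet genes that fell 18 (7 without single libraries) and accessory gland genes that fell 24 (6 to 17 without single libraries). No effect of a gene taken by the naming rule that was called changed sign, but calls were mostly lower with DESeq2, its size factors and the deposited factors (41.7% to 42.5% higher, against 53.8%). Of the 166 calls at A6 among genes taken by the naming rule, 122 held in every setting. The cause of each change was not tested.

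No paired analysis was possible because the labels carry no replicate numbers. The search of promoters for an ERR motif and its alternatives were not run, as no promoter sequences were used here. Depth limits genes under about 1 CPM, a handful of counts a library, and 3 libraries a group with an unstated source limit every p.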

Other observations

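Calls were spread unevenly over chromosomes. On the small chromosome 4 13 of 95 genes tested were higher (13.7%) and 1 was lower (1.05%), and on the X 8.6% were higher and 5.01% lower. On the large autosome arms higher genes were between 5.17% and 5.82% of those tested. Of 18 genes tested on the Y chromosome 2 were higher and none lower.

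Several other groups moved in part, beside shares over all genes of 6.14% higher and 5.28% lower. Of 37 odorant-binding proteins, small secreted carriers of the antenna and other tissues, 5 fell and 1 rose (11 fell and 4 rose with only the A6 libraries, and 9 fell in DESeq2). Obp99c was at 325, 317 and 263 CPM in the controls and 144, 135 and 128 CPM in the mutants (log2 fold change -1.15 ± 0.15, adjusted p = 1.5e-06). Of 79 cytochrome P450 genes, which detoxify plant and other compounds, 9 fell and none rose, so that 11.4% were called, as were 11.4% of all genes (17 fell and 2 rose with only the A6 libraries). Cyp4d14 was at 42, 62.6 and 41.4 CPM in the controls and 18.5, 18.8 and 13.2 CPM in the mutants (log2 fold change -1.53 ± 0.29, adjusted p = 4.7e-04), and 97.2% of its exonic bases are shared with genes on the other strand. The clock repressor cwo rose 1.51-fold (log2 fold change 0.59 ± 0.11, adjusted p = 3.9e-04), the 1 gene of 10 clock genes to pass (4 rose and 1 fell with only the A6 libraries). Of 22 cell cycle genes none passed in edgeR (2 at an unadjusted p under 0.05, 0 by DESeq2), and with only the A6 libraries 1 rose and 1 fell.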
